A study of Mus musculus with 16 samples.

Results

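A set of 9 transcription factors that act in the monocyte lineage, the genes Spi1, Cebpa, Cebpb, Cebpd, Klf2, Klf4, Klf6, Maf and Runx1, were followed across all the libraries of the experiment. They were picked by symbol, from a list drawn up with earlier results of these data known, and all 9 of 9 are among the 13085 genes of the expression table. The experiment used RNA-seq of mouse monocytes from C57BL/6 animals to ask how loss of NFAM1, a receptor of myeloid cells, changes their activation. NFAM1+/+ cells and NFAM1-/- cells were either left untreated or kept for 1 h in interferon gamma (IFN-γ) and then given MegaCD40L, an oligomeric form of CD40 ligand, at 1 µg/mL, and RNA was taken after 6 h or 24 h. This gives 8 groups of 2 libraries, 16 in all: unstimulated and stimulated, at 6 h and at 24 h, for each genotype.

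The NFAM1-/- mice lack exons 2 and 3 of NFAM1, removed in the germ line with CRISPR, so all cells of the animal carry the deletion. The labels give the cell type as PBL Monocyte, whereas the study's methods describe monocytes enriched from bone marrow, and the study names fewer mice for this experiment than there are libraries, without saying how they were divided. Libraries may therefore share animals, and the p-values below measure the spread between these libraries, which may be technical. The genotype was taken from the library titles. In 4 of the 8 libraries at 24 h (44, 46, 56 and 58) the genotype tag contradicts the title. Comparisons of stimulus and of time use 4 libraries against 4, with both genotypes on each side, so their folds do not depend on which label is right, while the spread they are tested against does. The numbers of these factors called for stimulus, time and their interaction were the same with the genotype tag. Nfam1 itself (chromosome 15, 82992973 to 83033306, minus strand, GRCm38) was measured in all groups, at 299 to 432 CPM (read counts scaled to the size of the library) without stimulus at 6 h. There the 2 NFAM1-/- libraries, at 299 and 321 CPM, lay below the 2 NFAM1+/+ libraries at 432 and 408 CPM. With stimulus at 6 h the genotypes overlapped, at 133 and 129 CPM in NFAM1+/+ and 135 and 127 CPM in NFAM1-/-. By title the 24 h libraries did not overlap: NFAM1+/+ libraries held 463 and 495 CPM against 441 and 391 CPM in NFAM1-/- without stimulus, and 271 and 252 CPM against 201 and 223 CPM with it. A whole-gene count includes the exons outside the deletion and therefore does not check the deletion.

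As background, monocytes arise in the bone marrow from progenitors in which the ETS factor PU.1, encoded by Spi1, and the leucine zipper factor C/EBPα, encoded by Cebpa, open myeloid enhancers, with RUNX1 acting earlier in the same lineage. C/EBPβ and C/EBPδ bind the same sites as C/EBPα and are known for their part in acute-phase and cytokine gene expression. KLF2, KLF4 and KLF6 are zinc finger factors that bind GC-rich and CACCC sequences: KLF2 is known to restrain activation of myeloid cells, KLF4 is needed for inflammatory monocytes, and KLF6 is linked to inflammatory macrophage programmes. MAF, the c-Maf protein, is a large leucine zipper factor of macrophages that drives Il10.

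Sequence just before the start of transcription was given for 6 of the 9 genes by RefSeq (GRCm38.p6). Shown here are the windows of the factors that rose furthest with the stimulus (Klf4 and Klf6) and of factors that fell (Cebpa and Klf2), up to the first annotated exon. The windows were thus picked by their response. Of the motifs searched, only the E-box CACGTG is marked, in capitals, and a link between it and the response was not tested. All sequences are written 5′ to 3′ on the strand of the gene.
Klf4, chr4:55532476-55532725, minus strand: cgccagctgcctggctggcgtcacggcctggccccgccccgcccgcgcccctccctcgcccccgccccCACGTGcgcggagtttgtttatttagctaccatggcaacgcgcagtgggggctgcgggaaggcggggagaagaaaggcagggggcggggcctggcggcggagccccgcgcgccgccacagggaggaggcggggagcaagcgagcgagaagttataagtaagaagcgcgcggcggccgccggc
Klf6, chr13:5861239-5861481, plus strand: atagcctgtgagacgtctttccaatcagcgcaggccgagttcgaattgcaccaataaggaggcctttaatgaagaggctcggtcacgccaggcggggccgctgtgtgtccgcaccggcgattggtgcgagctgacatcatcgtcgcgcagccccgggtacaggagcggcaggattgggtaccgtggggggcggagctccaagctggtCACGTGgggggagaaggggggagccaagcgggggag
Cebpa, chr7:35119043-35119292, plus strand: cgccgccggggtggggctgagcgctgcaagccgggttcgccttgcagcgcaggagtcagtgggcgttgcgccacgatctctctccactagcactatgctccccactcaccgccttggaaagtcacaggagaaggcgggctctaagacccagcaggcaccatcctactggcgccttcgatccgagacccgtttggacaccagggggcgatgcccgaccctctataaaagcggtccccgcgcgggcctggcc
Klf2, chr8:72318812-72319032, plus strand: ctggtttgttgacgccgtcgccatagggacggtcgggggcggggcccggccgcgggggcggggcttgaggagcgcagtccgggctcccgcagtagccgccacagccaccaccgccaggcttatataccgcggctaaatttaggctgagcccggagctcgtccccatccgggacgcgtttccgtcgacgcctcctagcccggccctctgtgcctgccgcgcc
The distal start of Runx1 holds the same hexamer, shown with 12 bases on each side.
Runx1, chr16:92826128-92826157, minus strand: catcacttaagtCACGTGattggcaagagc
The E-box began 182 bases before the RefSeq start of Klf4, 43 bases before that of Klf6 and 71 bases before the distal start of Runx1. It was absent from the 250 bases before the starts of Cebpa, Cebpb and Klf2 and before the proximal start of Runx1, and 6.02% of the 32851 promoter windows of this length hold it. The GC box GGGCGG, searched on both strands like all motifs here, occurred 5 times before Cebpb, 4 times before Klf4, 2 times before Klf2 and 1 time before Klf6, against 32.7% of all windows with at least 1. The window of Cebpa holds none, and it has TATAAA 30 bases before the start, a hexamer found in 12.4% of all windows. The letters of the interferon motif TTCNNNGAA (in 7.02% of windows), of the kappa B consensus (7.25%), of the C/EBP motif TTGCNNAA (9.56%) and of the RUNX motif TGTGGT (14%) did not occur in any of the 7 windows of these 6 genes. GAGGAA, the core of the PU.1 motif, occurred 1 time, before the proximal start of Runx1, and is in 23.3% of all windows. CACCC, in 52% of windows, was present before Cebpa, Cebpb, Klf2 and the proximal start of Runx1. These matches describe letters in a window, and binding was not measured.

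The libraries held 48295939 to 88514341 reads assigned to genes, and each of the 9 factors had 677 to 84869 reads in every library. The ratio of a library's total to the scaled size used for its CPM values was 0.756 to 0.775 without stimulus at 6 h and 1.24 to 1.32 with it, and 0.776 to 0.788 against 0.970 to 0.997 at 24 h, which moves with the stimulus. Scaling each library to its total instead moved the median log2 fold of all genes from -0.12 to -0.86 for the stimulus at 6 h and from 0.01 to -0.33 at 24 h, and directions that turn with the scaling are named below.

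All 12 monocyte markers looked for, among them Ly6c2, Csf1r and Lyz2, were above 1 CPM in every stimulus and time. Their summed level was 29906 to 33655 CPM without stimulus and 8473 to 12206 CPM with it. The 11 neutrophil markers summed to 1133 to 1689 CPM without stimulus at 24 h and to 324 to 597 CPM in the other 12 libraries, and all 11 passed the test for a rise from 6 h to 24 h without stimulus. In that comparison 64.4% of all genes tested passed, in either direction. T cell and B cell markers (3 of 8 and 2 of 7 in the table) summed to at most 7.0 and 17.4 CPM in a library, and none of the 6 NK cell markers was in the table. The 6 progenitor markers summed to 45.7 to 70.7 CPM without and 124 to 163 CPM with stimulus at 6 h. At 24 h the sums were 38.9 to 59.1 CPM without and 17.5 to 37.2 CPM with stimulus. Only 1 of the 6 was at least 2-fold higher with stimulus at 6 h and passed the test, and 1 was lower. At 24 h 1 was higher and 4 were lower. Of all genes tested, 39.7% passed with at least a 2-fold change at 6 h and 33.3% at 24 h. The stimulated sum thus lay above the unstimulated one at 6 h and below it at 24 h, as for Maf and Runx1 below. Without stimulus Maf and Runx1 rose with time, whereas these sums overlapped. The 6 dendritic cell markers summed to 37.0 to 46.1 CPM without stimulus and 50.7 to 118 CPM with it at 6 h, and to 121 to 214 and 118 to 248 CPM at 24 h. The 5 of 7 erythroid markers in the table summed to at most 45.3 CPM. In bulk RNA, fewer cells of a type and less RNA per cell cannot be told apart, and the part of these markers in the results below was not tested.

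With the stimulus some of the 9 factors rose and others fell. Klf4, Klf6, Maf and Runx1 rose at least 2-fold at 6 h, and Cebpa, Cebpd and Klf2 fell at least 2-fold. At 24 h Klf4, Klf6 and Cebpb were at least 2-fold higher and Cebpa, Cebpd and Maf at least 2-fold lower. "Passed" means here an adjusted p under 0.05 in limma over 12782 genes (Benjamini-Hochberg), and "called" means passed with a fold of at least 2. Of the 9 factors, 8 passed and 7 were called at 6 h (4 higher, 3 lower), and 9 passed and 6 were called at 24 h (3 higher, 3 lower). The background is high: 78.3% of all genes tested passed and 39.7% were called at 6 h, and 74.8% passed and 33.3% were called at 24 h. The median log2 fold of the 9 was 0.47 at 6 h and -0.28 at 24 h, beside -0.12 and 0.01 for all genes. The first is the value of Spi1, whose sign turned with the scaling, and the second that of Runx1.

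**Figure D1:**
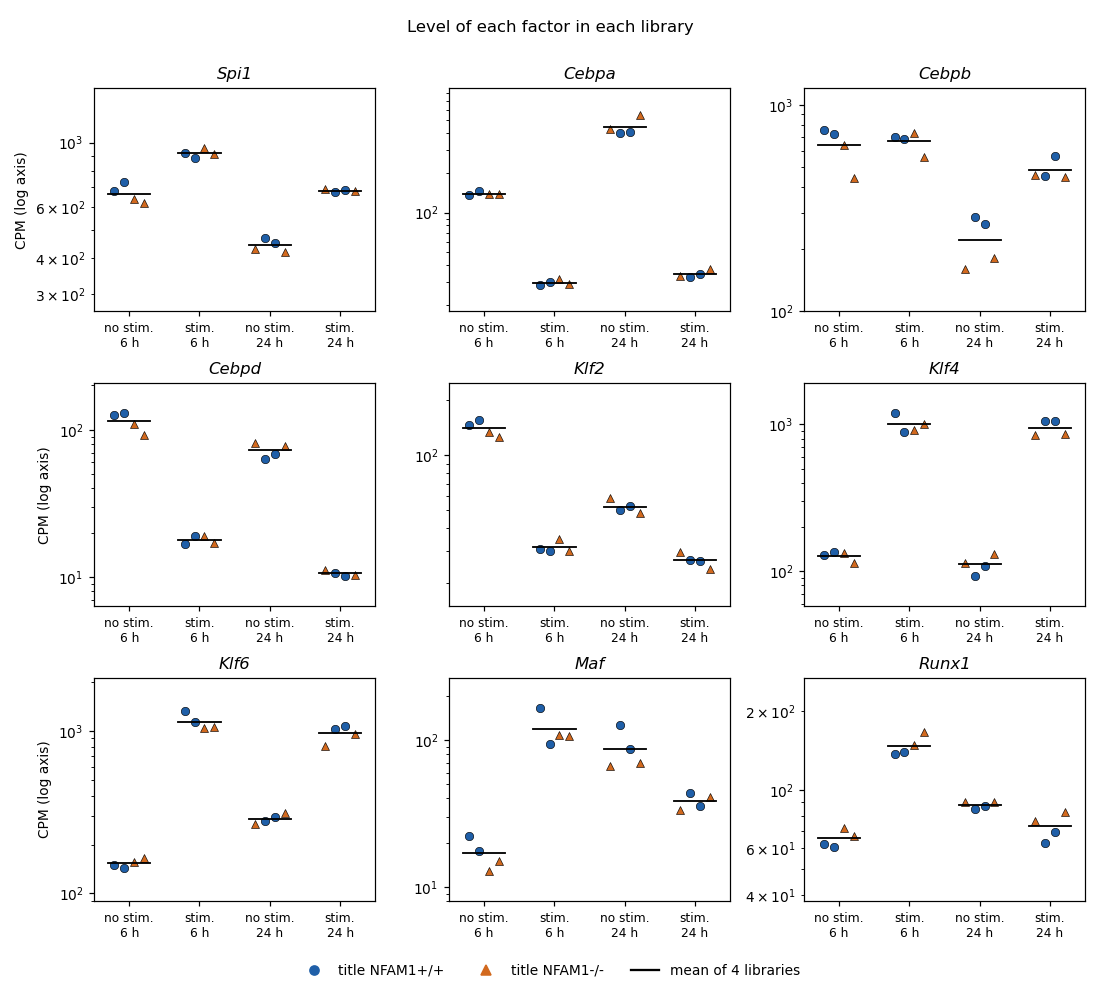
Level of each factor in CPM (log axis) in each of the 16 libraries, by stimulus and time, with circles for titles of NFAM1+/+, triangles for titles of NFAM1-/- and a bar for the mean of 4 libraries. The 8 stimulated libraries of Klf4 sit between 849.6 and 1196 CPM and the 8 unstimulated ones between 92.0 and 136 CPM, while Cebpa and Cebpd show the opposite order.

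Spi1 encodes PU.1, the ETS factor on which the myeloid lineage depends (chromosome 2, 91082390 to 91115756, plus strand). Without stimulus at 6 h it was at 679 and 729.9 CPM in NFAM1+/+ and 641 and 618 CPM in NFAM1-/- libraries, and with stimulus at 917, 887, 960.3 and 912 CPM in the same order of genotypes. At 24 h the unstimulated libraries held 469, 452, 430.0 and 419 CPM and the stimulated ones 674, 684, 689 and 681 CPM. Stimulated libraries were thus above unstimulated ones at both times, with no overlap. The log2 fold with the stimulus was 0.47 ± 0.04 (SE) at 6 h (adjusted p = 2.92e-07) and 0.63 ± 0.04 at 24 h (adjusted p = 1.41e-08), both under 2-fold. The direction at 6 h turned with the scaling, to -0.27 with total-read scaling and -0.62 with quantile normalization, and at 24 h quantile normalization left 0.08 (adjusted p = 0.126). Spi1 fell with time, by 0.59 on the log2 scale without stimulus (adjusted p = 6.70e-08) and by 0.43 with it (adjusted p = 7.82e-07), the latter not under quantile normalization (0.051).

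Cebpa encodes C/EBPα, the factor of granulocyte and monocyte progenitors (chromosome 7, 35119293 to 35121928, plus strand). Its unstimulated libraries at 6 h held 135, 147, 138 and 137 CPM (NFAM1+/+ first, here and below) and its stimulated ones 28.6, 29.7, 31.3 and 28.7 CPM. By 24 h the unstimulated libraries had 400.2, 410.2, 430.1 and 544 CPM, while the stimulated libraries stayed at 32.9, 34.5, 33.1 and 37.6 CPM. Cebpa was the factor with the widest gap of the 9 at 24 h: the stimulated level was 4.71-fold lower at 6 h (log2 -2.24 ± 0.07, adjusted p = 1.20e-12) and 12.8-fold lower at 24 h (-3.68 ± 0.07, adjusted p = 1.64e-14). It rose 3.18-fold from 6 h to 24 h without stimulus (adjusted p = 2.06e-10) but 1.17-fold with it (adjusted p = 0.0104), and the stimulus effect differed between the times by -1.45 ± 0.10 (adjusted p = 2.63e-08). The small rise with stimulus did not pass after quantile normalization (0.13) or median centring (0.05). The summed neutrophil markers moved with the unstimulated rise, from 374 to 488 CPM at 6 h to 1133 to 1689 CPM at 24 h; their part in it was not tested.

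Cebpb, on chromosome 2 (167688915 to 167690418, plus strand), encodes C/EBPβ, known as a factor of inflammatory gene expression. At 6 h it held 752, 723, 641 and 443 CPM without stimulus and 699, 681, 731 and 561 CPM with it, so the groups overlapped. The 24 h libraries held 285, 263, 159 and 180.2 CPM without stimulus and 454, 565, 457 and 447 CPM with it, which did not overlap. The log2 fold was 0.08 ± 0.11 at 6 h (adjusted p = 0.494), with its sign set by the scaling (-0.65 with total-read scaling and -0.94 with quantile normalization, both passing), and by which library was left out (-0.049 without library 4 and -0.011 without library 11). At 24 h it was 1.15 ± 0.11 (adjusted p = 3.53e-07), and the 2 times differed by 1.07 ± 0.16 (adjusted p = 3.69e-05). Under other settings the 24 h value ran from 0.73 to 1.31, so the rise was not 2-fold in all of them. Cebpb fell 2.91-fold over time without stimulus (adjusted p = 3.90e-08) and 1.39-fold with it (adjusted p = 0.00142), and its higher stimulated level at 24 h stands beside this larger fall in the unstimulated cells. The 1.39-fold fall did not pass with total-read scaling (-0.10) or quantile normalization (0.011).

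Cebpd, the gene of C/EBPδ, an acute-phase factor, lies on chromosome 16 (15887286 to 15891031, plus strand). Unstimulated libraries held 126, 129, 109.6 and 92.7 CPM at 6 h and 63.4, 68.8, 81.5 and 77.2 CPM at 24 h. Stimulated libraries held 16.7, 19.0, 19.0 and 17.2 CPM at 6 h and 10.7, 10.2, 11.2 and 10.3 CPM at 24 h. Cebpd was lower with the stimulus by nearly the same factor at both times, 6.31-fold at 6 h (log2 -2.66 ± 0.07, adjusted p = 2.11e-13) and 6.84-fold at 24 h (-2.77 ± 0.07, adjusted p = 2.44e-13). The difference between the times was -0.11 ± 0.10 (adjusted p = 0.326), and its sign turned with total-read scaling (0.28). With time it fell 1.57-fold without stimulus (adjusted p = 2.63e-06) and 1.70-fold with it (adjusted p = 2.36e-07). Because the library kit did not mark strand, reads of opposite-strand genes add to these counts where exons overlap: 562 exon bases of Cebpd are shared with Spidr, 312 of Cebpb with Tmem189, 440 of Maf with Gm15655, 106 of Runx1 with Gm26626 and 51 of Cebpa with Gm45091 (GENCODE vM21).

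Within a library, the ratio of 2 factors does not depend on the size to which that library is scaled, although quantile normalization, which shifts genes unequally, would change it. In CPM, without regard to exon length, Cebpb stood 3.23 to 5.56 times above Cebpa without stimulus at 6 h and 19.5 to 24.4 times above it with stimulus. At 24 h the unstimulated CPM ratio was 0.331 to 0.711 and the stimulated ratio 11.9 to 16.3. Cebpa thus had more CPM than Cebpb in all 4 unstimulated libraries at 24 h. Per kilobase of exon the 2 overlapped there, at 151.8 to 206.3 for Cebpa and 105.8 to 189.2 for Cebpb. Stimulation raised the ratio 5.0-fold at 6 h and 28.5-fold at 24 h. Spi1 over Cebpa rose 6.51-fold and 19.8-fold, and Cebpb over Cebpd 6.70-fold and 15.2-fold. The pairs were chosen after the values had been seen, so these ratios are a description without a test.

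Klf4 encodes a zinc finger factor needed for inflammatory monocytes (chromosome 4, 55527143 to 55532466, minus strand). Unstimulated libraries held 128, 136, 132 and 114 CPM at 6 h and 92.0, 108, 113 and 132 CPM at 24 h. Stimulated libraries held 1196, 895, 921 and 1000.3 CPM at 6 h and 1057, 1049.7, 849.6 and 857 CPM at 24 h. The rise was 7.83-fold at 6 h (log2 2.97 ± 0.09, adjusted p = 6.41e-13) and 8.61-fold at 24 h (3.11 ± 0.09, adjusted p = 6.60e-13), the largest stimulus rise among the 9 at both times. Klf4 did not pass a test of the difference between the times (0.14 ± 0.12, adjusted p = 0.343), although total-read scaling (0.53) and quantile normalization (0.58) gave one that passed. Over time the log2 fold was -0.21 ± 0.09 without stimulus (adjusted p = 0.0504, passing under 6 of 11 other settings and without library 4, 10, 26, 45 or 46, at 0.0146 to 0.0329) and -0.07 ± 0.09 with it (adjusted p = 0.469), the latter reversed by total-read scaling (0.30) and quantile normalization (0.39) and without library 26 (0.033).

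Klf6, on chromosome 13 (5861482 to 5870394, plus strand), encodes a related factor known from inflammatory macrophages. Its unstimulated libraries were at 151, 143, 157 and 165 CPM at 6 h and its stimulated ones at 1324, 1136, 1045 and 1049.9 CPM. At 24 h the levels were 279, 296, 268 and 311 CPM without stimulus and 1025, 1066, 811 and 956 CPM with it. The gap was thus wide at both times but smaller at 24 h, where the unstimulated level had risen. The stimulated level was 7.37-fold higher at 6 h (log2 2.88 ± 0.07, adjusted p = 5.91e-14) and 3.33-fold higher at 24 h (1.74 ± 0.07, adjusted p = 1.88e-11), a difference of -1.15 ± 0.10 (adjusted p = 1.78e-07). Without stimulus Klf6 rose 1.87-fold with time (adjusted p = 5.93e-08). With stimulus it fell by 0.24 on the log2 scale (adjusted p = 0.00524), a direction that total-read scaling (0.13) and quantile normalization (0.25) reversed.

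Klf2, a factor of quiescent myeloid and endothelial cells (chromosome 8, 72319033 to 72321656, plus strand), went the other way. Unstimulated libraries held 146, 155, 134 and 126 CPM at 6 h, and stimulated ones 30.6, 29.9, 34.9 and 29.8 CPM. At 24 h they held 50.4, 52.6, 58.2 and 48.3 CPM without stimulus and 26.7, 26.5, 29.6 and 23.9 CPM with it. Klf2 was 4.48-fold lower with stimulus at 6 h (log2 -2.16 ± 0.08, adjusted p = 6.89e-12) and 1.97-fold lower at 24 h (-0.97 ± 0.08, adjusted p = 5.74e-08), just short of the 2-fold line. Other settings gave -1.31 to -0.95 at 24 h, on both sides of that line. The difference between the times was 1.19 ± 0.11 (adjusted p = 5.62e-07), and it stands beside a 2.68-fold fall with time in the unstimulated cells (adjusted p = 3.04e-09). With stimulus the change over time was -0.23 ± 0.08 (adjusted p = 0.0157), which turned to 0.14 with total-read scaling and did not pass without library 11 (-0.18) or library 58 (-0.16). Klf4 over Klf2 was 0.873 to 0.985 without stimulus at 6 h and 26.4 to 39.1 with it, a 35.1-fold shift, and it shifted 16.9-fold at 24 h. Klf6 over Klf2 shifted 33.0-fold and 6.54-fold.

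Maf encodes c-Maf, a macrophage factor (chromosome 8, 115682942 to 115707794, minus strand), and changed direction between the times. Without stimulus it rose from 22.1, 17.6, 12.8 and 15 CPM at 6 h to 126, 86.4, 66.1 and 69.7 CPM at 24 h. With stimulus it fell from 165, 94.0, 108 and 107 CPM at 6 h to 43.4, 35.5, 33.1 and 40.7 CPM at 24 h. Neither pair of time points overlapped. The stimulated level was 6.99-fold higher at 6 h (log2 2.81 ± 0.16, adjusted p = 1.04e-09) and 2.22-fold lower at 24 h (-1.15 ± 0.16, adjusted p = 1.73e-05), and the difference between these effects was -3.96 ± 0.23 (adjusted p = 5.44e-09), the largest of the 9. Its rise without stimulus was 5.10-fold (adjusted p = 2.50e-08) and its fall with stimulus 3.04-fold (adjusted p = 5.38e-07).

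Runx1 encodes a core DNA-binding factor of blood cells (chromosome 16, 92601466 to 92826149, minus strand) and showed the same change of direction on a smaller scale. At 6 h unstimulated libraries held 62.6, 60.6, 72.0 and 66.7 CPM and stimulated ones 137, 139, 148 and 166 CPM. At 24 h unstimulated libraries held 85.0, 86.7, 89.7 and 90.1 CPM and stimulated ones 63.0, 69.2, 76.2 and 82.5 CPM. The stimulated libraries lay above the unstimulated ones at 6 h and below them at 24 h, without overlap at either time. The fold was 2.25-fold higher at 6 h (log2 1.17 ± 0.05, adjusted p = 7.29e-11), and total-read scaling (0.44) and quantile normalization (0.75) left it under 2-fold. It was 1.21-fold lower at 24 h (-0.28 ± 0.05, adjusted p = 0.000278). The effects differed by -1.45 ± 0.08 (adjusted p = 2.11e-09). Runx1 rose 1.34-fold with time without stimulus (adjusted p = 8.84e-06) and fell 2.03-fold with it (adjusted p = 5.82e-10). This fall lay at the 2-fold line: its log2 value was -1.02 and ran from -1.20 to -0.65 under other settings. It was under 2-fold without library 12, 55 or 56.

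**Figure D2:**
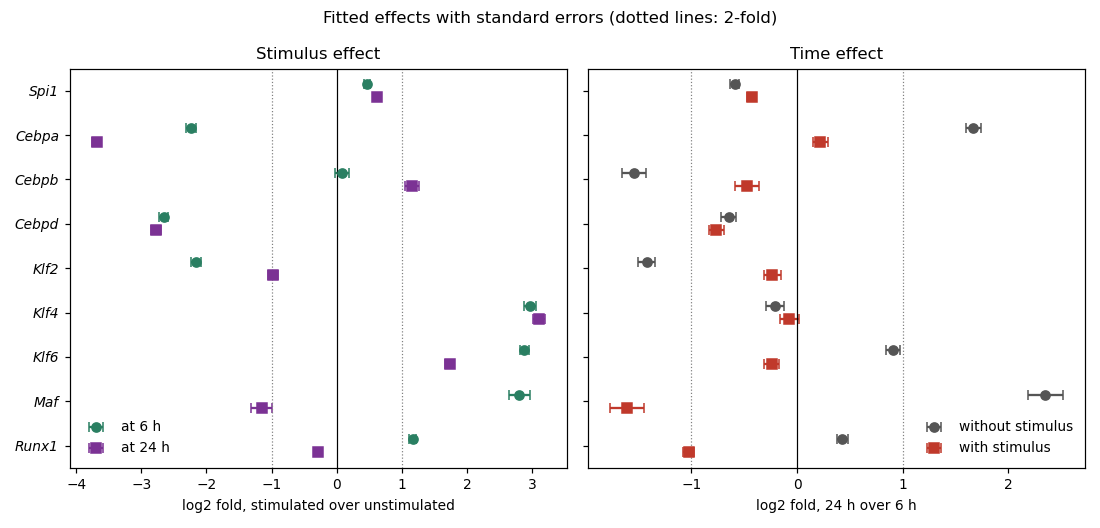
Fitted log2 fold (x axis) of each factor with its standard error, on the left for stimulated over unstimulated cells at 6 h (circles) and 24 h (squares) and on the right for 24 h over 6 h without (circles) and with stimulus (squares), with dotted lines at 2-fold. Maf and Runx1 lie on opposite sides of 0 at 6 h and 24 h for the stimulus, at 2.81 and -1.15 and at 1.17 and -0.28, while Klf4 is at 2.97 and 3.11.

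Over the passage from 6 h to 24 h, 8 of the 9 factors passed without stimulus and 4 were called (Cebpa and Maf higher, Cebpb and Klf2 lower), where 64.4% of all genes passed and 21% were called. With stimulus 8 passed and 2 were called, Maf and Runx1, both lower, where 76.4% of all genes passed and 33.7% were called. The call of Runx1 did not hold in all settings. The stimulus effect differed between the times for 7 of the 9, of which 6 were called (Cebpb and Klf2 higher at 24 h than at 6 h, and Cebpa, Klf6, Maf and Runx1 lower), where 67.2% of all genes passed and 31.5% were called. The seventh is Spi1, with a difference of 0.16 ± 0.06 (adjusted p = 0.0370) that did not pass when any of 9 libraries was left out (0.13 to 0.17 in those fits), with the genotype tag (adjusted p = 0.0842) or without the 4 libraries whose labels disagree (adjusted p = 0.130), and was 0.0042 after median centring. The unstimulated 24 h libraries enter both the time and the stimulus comparisons, so these counts are not independent of each other.

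**Figure D3:**
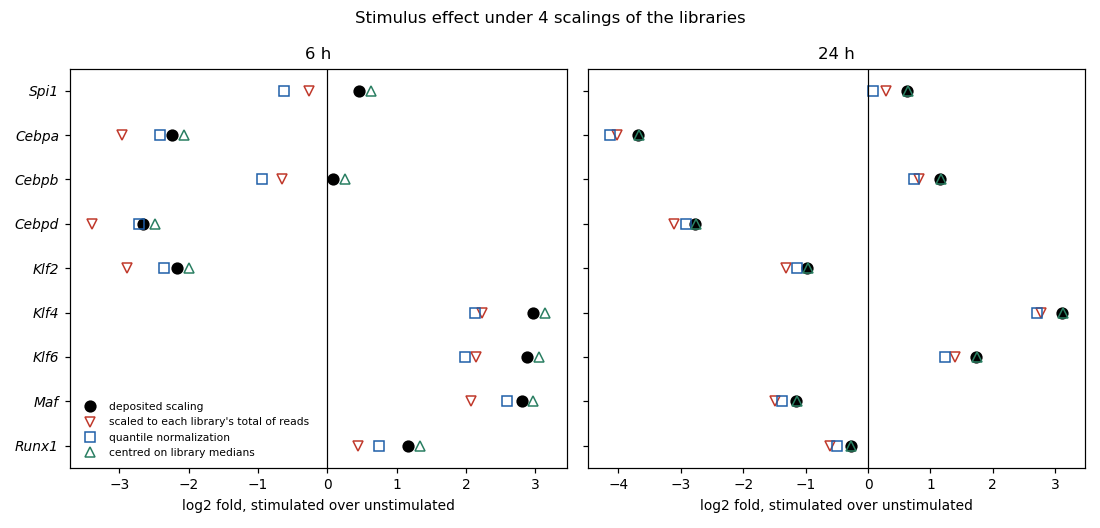
Log2 fold of stimulated over unstimulated cells (x axis) for each factor at 6 h and 24 h, as deposited and after scaling to total reads, quantile normalization and centring on library medians. Klf4, Klf6, Maf and Runx1 stay above 0 and Cebpa, Cebpd and Klf2 below 0 at 6 h in all 4, while Spi1 runs from -0.62 to 0.63 and Cebpb from -0.94 to 0.25.

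Compared per length of exon (CPM per kilobase, GENCODE vM21), the factors kept no common order. Without stimulus at 6 h Cebpb led at 425 ± 92.6 (SD, n = 4), followed by Spi1 at 247 ± 18.2, Klf2 at 76.0 ± 7.02 and Cebpa at 52.9 ± 1.97. Klf4 (41.8 ± 3.05), Klf6 (35.1 ± 2.09) and Cebpd (30.5 ± 4.48) came next, each overlapping its neighbour in that order. Runx1 (5.44 ± 0.419) and Maf (2.05 ± 0.486) were lowest. With stimulus at 6 h the leading 4 were Cebpb (444 ± 49.4), Spi1 (341 ± 11.3), Klf4 (329 ± 44.6) and Klf6 (259 ± 29.7), of which Spi1, Klf4 and Klf6 overlapped in turn, and the next, Klf2, was at 17 ± 1.32. Maf (14.4 ± 3.88), Runx1 (12.3 ± 1.13) and Cebpa (11.2 ± 0.481) overlapped their neighbours, and Cebpd was lowest at 4.8 ± 0.321. At 24 h without stimulus Cebpa (169 ± 25.2), Spi1 (164 ± 8.28) and Cebpb (147 ± 40.8) overlapped at the top, and with stimulus Cebpb (319.6 ± 37.3) and Klf4 (313 ± 37.9) overlapped above Spi1 (253 ± 2.31) and Klf6 (219.7 ± 25.5). Runx1 was lowest without stimulus at 24 h (7.31 ± 0.204) and Cebpd with it (2.83 ± 0.128).

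No factor passed the test between NFAM1-/- and NFAM1+/+ libraries by title in limma, at either time, with or without stimulus. The share of all genes that passed was 0.156% without stimulus and 0% with stimulus at 6 h, 0.954% and 2.1% at 24 h, 0.383% over both stimuli at 6 h and 0% for the interaction of genotype and stimulus at 6 h. Behind the 0 of 12782 genes with stimulus at 6 h stand 1862 genes with an unadjusted p under 0.05, and behind the 0 of the interaction 1090. The 2 genotypes did not overlap for 7 of the 9 factors without stimulus at 6 h, 2 with it, 7 without stimulus at 24 h and 3 with it, where 42.2%, 42.4%, 45.4% and 48.2% of all genes did not. With 2 libraries a side, such a separation is common.

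Cebpb, the C/EBPβ gene, came nearest. Without stimulus at 24 h the NFAM1-/- libraries held 159 and 180.2 CPM and the NFAM1+/+ libraries 285 and 263 CPM, a log2 fold of -0.69 ± 0.16 (adjusted p = 0.0585). It passed under 5 alternatives, with an adjusted p of 0.0284 to 0.0484, and without library 3 (0.0212) or library 4 (0.0209). By the genotype tag, which exchanges libraries 44 and 46, the value was -0.033 (adjusted p = 1.00). Without stimulus at 6 h, where the labels do not conflict, the libraries held 641 and 443 CPM against 752 and 723 CPM (-0.47 ± 0.16, adjusted p = 0.302). With stimulus the genotypes overlapped at both times (-0.11 ± 0.16 at 6 h, adjusted p = 0.805, and -0.16 ± 0.16 at 24 h, adjusted p = 0.708).

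Maf, the c-Maf gene, was also lower in NFAM1-/- libraries without stimulus, at 12.8 and 15 CPM against 22.1 and 17.6 CPM at 6 h (-0.51 ± 0.23, adjusted p = 0.472) and at 66.1 and 69.7 CPM against 126 and 86.4 CPM at 24 h (-0.62 ± 0.23, adjusted p = 0.311). These differences did not pass, and the tag turned the one at 24 h to 0.24. Over both stimuli at 6 h the value was -0.37 ± 0.16 (adjusted p = 0.320). It was -0.57 when library 10 was left out, a fit with only library 26 for stimulated NFAM1+/+ cells at 6 h. Runx1, the blood cell factor, was higher in the NFAM1-/- libraries in all 4 conditions without overlap, by 0.17 and 0.19 at 6 h and 0.07 and 0.26 at 24 h on the log2 scale, with adjusted p of 0.0879 to 0.835, and by the tag the values at 24 h were -0.017 and -0.12. For the other 6 factors the differences ran from -0.34 to 0.29, with adjusted p of at least 0.215.

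**Figure D4:**
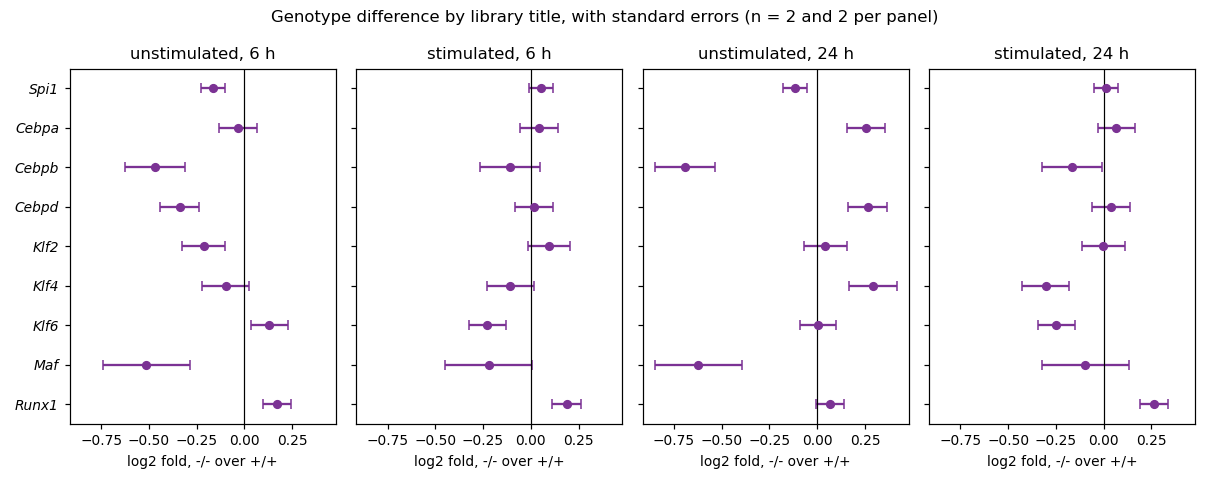
Log2 fold of NFAM1-/- over NFAM1+/+ libraries by title (x axis) for each factor in the 4 conditions, with standard errors from limma (2 libraries against 2). No factor passed, and Cebpb without stimulus lies at -0.47 at 6 h and -0.69 at 24 h and Runx1 at 0.07 to 0.26 in the 4 conditions.

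Relatives of the 9 factors moved in both directions. Their counts are to be read against the 39.7% of all genes called with the stimulus at 6 h and the 33.3% called at 24 h. Of 17 ETS genes tested, 6 (35.3%) were called at 6 h and 8 (47.1%) at 24 h, with Etv6, a repressor, higher (log2 1.75 and 1.54) and Fli1, a megakaryocyte factor, lower (-1.37 and -1.34) at both times. Ehf fell too, from a level under 1 CPM. Among the 4 C/EBP relatives Ddit3, a stress factor, was 1.21 and 2.27 higher. Of 12 KLF and SP genes, 5 (41.7%) and 3 (25%) were called, and Klf8 (3.99 and 1.92) and Klf3 (1.31 and 1.23) rose with Klf4 and Klf6. The small Maf genes Maff (2.75 and 3.08) and Mafk (3.17 and 1.44) and the cap'n'collar gene Nfe2l1 (1.12 and 2.72) rose, while Nfe2, a factor of erythroid cells and megakaryocytes, fell (-2.22 and -2.28). In all, 5 (62.5%) and 6 (75%) of 8 MAF relatives were called. Of 5 RUNX relatives, 2 (40%) and 0 were called. Etv5 and Spic rose with time with and without stimulus, and Nfe2 fell.

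Of 34 other myeloid transcription factors, 17 (50%) were called with the stimulus at 6 h (9 higher, 8 lower) and 24 (70.6%) at 24 h (6 higher, 18 lower), where 39.7% and 33.3% of all genes were called. Those called at both times with the largest changes were Gfi1 (2.30 and 5.10), Bhlhe40 (1.24 and 3.13) and Stat3 (2.02 and 1.88), higher, and Pparg (-4.66 and -4.42), Id3 (-1.86 and -4.20) and Tal1 (-1.08 and -3.81), lower. Rxra rose with time (1.53 and 1.65) and Gfi1b fell (-4.74 and -1.01). Another list held myeloid genes taken to have regulatory sites for these factors, and sites at these genes were not looked for. Of 31 tested, 17 (54.8%) were called at 6 h (8 higher, 9 lower) and 19 (61.3%) at 24 h (4 higher, 15 lower). Il6 (4.4 and 6.11) and Ly6c2 (2.53 and 2.36) rose, and Thbd (-5.06 and -5.64) fell. S1pr1 (3.34 to 0.0837 CPM at 6 h) and Cd163 (12.3 to 0.0348 CPM at 24 h) fell to levels near 0, where a fold depends on the offset. With time the granule genes Prtn3 (-3.06 and -7.15) and Ctsg (-3.55 and -4.10) fell, and S1pr1 rose (1.72 and 2.08). With stimulus at 24 h these were near 0 too, at 0.194, 0.371 and 0.228 CPM. Thbd, Il6, Tal1, Gfi1 and Gfi1b also had a mean under 1 CPM in some condition, so the same limit holds for their folds. It also holds for the rise of Etv5 with time, from a mean of 0.713 CPM with stimulus at 6 h.

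The genes whose log2 level followed each factor most closely across the 16 libraries are given as a description: the libraries of a condition share stimulus and time, so these values mostly reflect the 4 conditions. For Klf4 they were Procr (r = 0.995), Psma5 and AA467197 (0.994 each), and for Klf6 Tmem140 (0.995), Hk3 and Cndp2 (0.994 each). Cebpa was followed by Sort1, Abhd12 and Hsd17b4 (0.991 each) and Cebpd by F630028O10Rik (0.993), AI839979 (0.992) and Add3 (0.99). Spi1 was followed by Zbtb32 (0.986), Raly (0.985) and Psmd14 (0.984), Klf2 by Ddx11 (0.985), Zfp52 (0.980) and Yeats4 (0.979), and Runx1 by Dtd1 (0.982), Elmo1 (0.976) and Ccnj (0.973). Cebpb and Maf had looser companions, Oaf (0.969), Nfe2l2 (0.953) and Lrrc8b (0.948) for Cebpb and Mpeg1 (0.960), Plscr3 (0.950) and Sfxn2 (0.942) for Maf.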

How the data were processed

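RNA of 16 mouse monocyte libraries (polyA-selected, library kit without strand marking) was sequenced by the authors in paired ends. Per the labels, the submitters' processing notes list FastQC, STAR, edgeR and limma, without versions, and the builds GRCm39 and mm39. The deposited file holds 1 table of log2 values of 13085 genes, log2 CPM with 0.5 added to the read counts and library sizes scaled by the authors, and reads below 1000 came back as whole numbers to within 0.01. CPM values were computed as 2 to the power of the deposited log2 value.

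The 303 genes under 1 CPM in all but at most 1 library were left out, and limma (version 3.58.1, R 4.3.3) with a trended prior was fitted to the log2 values of the other 12782 genes with 1 mean for each of the 8 groups (8 residual degrees of freedom). Groups came from the titles. The contrasts were stimulus within time, time within stimulus, their interaction, and genotype within each condition, with Benjamini-Hochberg adjustment over all 12782 genes. A gene passed at an adjusted p under 0.05 and was called at a fold of at least 2 as well. The fit was tested on simulated data. Alternatives changed the filter, the scaling, the variance model, the offset, the libraries fitted and the genotype label, and left out each of the 16 libraries in turn.

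The text names the 9 factors, for each the 3 genes most correlated with it, up to 3 genes of each list with the largest rises and falls called at both times (or with and without stimulus), and Nfam1. A few genes this rule names are not reported here. The members and lists were chosen with earlier results of these data known. Coordinates are those of GENCODE vM21 (GRCm38), since an annotation of the build in the processing notes was not used here. The sources do not agree on how the cells were obtained. In the table, 17 symbols appear as dates, and 1 is listed more than once.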

Additional observations from a re-analysis of the deposited data

Results flagged for a closer look

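The stimulus effect of 7 factors differed between 24 h and 6 h by a limma interaction term (8 libraries at each time), which is why they stand here. The difference (24 h minus 6 h, log2) was 0.16 for Spi1, -1.45 for Cebpa, 1.07 for Cebpb, 1.19 for Klf2, -1.15 for Klf6, -3.96 for Maf and -1.45 for Runx1. Maf and Runx1 changed direction, being higher with stimulus at 6 h and lower at 24 h. No factor had an interaction of genotype and stimulus at 6 h that passed.

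Among the 36 sets of 4 libraries looked at (9 factors, 4 conditions), 2 held a library far from the other 3, and chance flags about 1 in 20 such sets. Cebpb in library 57 (NFAM1+/+ by title and tag, stimulated, 24 h) was at 565 CPM, where the other 3 were at 447 to 457 CPM. Klf2 in library 11 (NFAM1-/-, stimulated, 6 h) was at 34.9 CPM, where the other 3 were at 29.8 to 30.6 CPM. The cause was not tested.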

How the results depend on the processing

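No paired analysis was possible because library numbers are unique and the groups share no replicate number. Of 651 refits of 60 values under other settings, 611 kept direction and side of the threshold, 9 no longer passed, 15 newly passed and 16 changed sign. The 60 values were the stimulus, time and stimulus-by-time effects of every factor and the genotype effects of Cebpb, Maf and Runx1 only. Other filters, a prior without trend and a fit of only the libraries compared left the folds as they were. Those refits could therefore not change sign. The reversals were Spi1 with stimulus at 6 h (-0.27 with total-read scaling, -0.62 with quantile normalization), Cebpb at 6 h (-0.65 and -0.94), the time effect with stimulus of Spi1 (0.051, quantile), Cebpb (0.011, quantile), Klf2 (0.14, total), Klf4 (0.30 and 0.39) and Klf6 (0.13 and 0.25), the interaction of Cebpd (0.28, total) and Klf4 (-0.019, median centring), and, with the genotype tag, Maf (0.24) and Runx1 (-0.017) without stimulus and Runx1 with it (-0.12) at 24 h. The cause was not tested. Without a minimum fold the called factors became 8 for time without stimulus and 8 with it, and 1 for time with stimulus after total-read scaling or quantile normalization.

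Leaving out each library in turn gave 960 refits of the same 60 values. Of these, 932 kept direction and side of the threshold and 7 changed sign. A library outside a comparison cannot change its fold, only the spread it is tested against. Many of these refits could therefore not change sign. Cebpb with stimulus at 6 h ran from -0.049 to 0.22, and Klf4 over time with stimulus from -0.18 to 0.033. Factors called over time with stimulus were 1 or 2, being 1 without library 12, 55 or 56, where Runx1 was no longer called. The genotype effect with stimulus changed sign for Cebpb at 6 h (-0.30 to 0.082, positive without library 12), for Maf at 6 h (-0.63 to 0.19, positive without library 26) and for Maf at 24 h (-0.24 to 0.054, positive without library 55 or 56). Over all genes and all settings, the number that passed between genotypes ran from 1 to 87 without stimulus at 6 h, 0 to 972 with it, 2 to 232 without stimulus at 24 h and 0 to 577 with it. Total-read scaling moved the share of called genes that were higher with stimulus from 48.1% to 21.9% at 6 h and from 43.9% to 30.4% at 24 h.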
